A study of Homo sapiens with 12 samples.

Results

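Interferon-stimulated genes are the genes that cells switch on when a type I or type III interferon binds its receptor, and many of their products sense or block viruses. The 40 genes described here are a list of such genes, chosen with earlier results of these data known and spanning RNA sensors, transcription factors and effectors. All 40 were found among the 61044 gene IDs of the count table, DDX58, which encodes the RNA sensor RIG-I, under its current symbol RIGI. The RNA came from SCC-15, a long-established line of human oral squamous carcinoma cells. The study compared cells with a negative-control hairpin (NC) with cells in which 1 of 3 short hairpin RNAs (shRNA1, shRNA2 or shRNA3) was directed at FMOD, the gene of the matrix proteoglycan fibromodulin. All 4 groups were SCC-15 cells harvested after 48 hours, the labels give no difference between them but the hairpin, and each has 3 libraries, 12 in all. The labels name no promoter, vector or selection for the hairpins and do not say whether a group was a clone or a pool. Nothing says that the 3 libraries of a group came from separate cultures, so p-values measure only the spread between these libraries.

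Binding of interferon activates the kinases JAK1 and TYK2, which phosphorylate STAT2. Phosphorylated STAT2 and IRF9 act in a complex named ISGF3, which binds the interferon-stimulated response element in the promoters of its target genes. The response to interferon gamma uses a different, palindromic element. Viral double-stranded RNA can start the same programme through RIG-I and MDA5, and several members are also expressed at a basal level without interferon.

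FMOD itself had 2, 2 and 3 counts in the NC libraries and 0 in each of the 9 shRNA libraries, so the direction matched the labels at a level too low to size the knock-down. Library totals lay between 17287017 and 19567289 counts. Across genes, the log2 levels of NC and shRNA libraries correlated at 0.829 to 0.855 (Pearson), against at least 0.969 among the 6 libraries of shRNA1 and shRNA2. Within shRNA3, libraries 1 and 2 correlated at 0.995 with each other and at 0.916 to 0.919 with library 3, so results for shRNA3 are also given without libraries 1 and 2. All 12 squamous epithelial markers were detected (levels are CPM, counts scaled to a common library size, and summed to 3640 to 3880 in NC and 2470 to 5750 in the shRNA libraries). For the mean of the 3 shRNAs, 5 of the 12 rose and 4 fell. The keratins KRT14, KRT6A and KRT17 rose with every hairpin, KRT14 from 7.58 CPM in NC to 55.5, 24.5 and 149, KRT6A from 92.3 to 284, 429 and 212 and KRT17 from 312 to 648, 572 and 749. The basal keratin KRT5 fell from 1009 CPM in NC to 21.4, 80.2 and 74.9 with shRNA1, shRNA2 and shRNA3, and the cadherin CDH1 from 323 to 38.2, 53.4 and 66.1. The mesenchymal filament gene VIM rose from 3.26 to 445, 609 and 694 CPM, and the class II antigen gene HLA-DRA fell from 117 CPM to at most 0.0332. Of the 10 leucocyte markers (summed level 169 to 203 CPM in NC, 45.3 to 237 in the shRNA libraries), MS4A1 was at 0 throughout and PTPRC and CD3E were at or near 0. The 8 fibroblast markers summed to 59.9 to 63.2 CPM in NC and 374 to 899 with the shRNAs, with COL3A1 and DCN at or near 0. Of the 5 of them that were tested, VIM was called higher for the mean, while COL1A2, LUM and PDGFRB fell with every hairpin. The 6 endothelial markers summed to 18 to 23.4 CPM and 4.03 to 14.3, with KDR at or near 0. The part of these shifts in the results below was not tested, and an effect of the FMOD hairpins and any other difference between the NC cells and the shRNA cells cannot be told apart. In a bulk culture, fewer cells of a kind and less RNA per cell cannot be told apart either.

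The promoters show what the members share beside their name. Windows from 250 bases before to 50 bases after the start site were present for 33 of the 40 members (82.5%) in RefSeq's annotation of GRCh38.p14. The core of the interferon-stimulated response element, TTTCNNTTTC, searched on both strands, was present in 21 of these 33 windows (63.6%) and in 1255 of all 35116 promoter windows (3.57%). The shorter TTCNNNGAA, a palindrome that both strands read alike and that can overlap the longer motif, was in 10 of the 33 (30.3%) and in 2689 of all windows (7.66%). Members that rose and members that fell both carried the longer motif: it was in 6 of 7 windows of members called higher than NC for the mean of the 3 shRNAs, in 8 of 16 of those called lower and in 7 of 10 of the rest. Stretches of 10 promoters are shown 5′ to 3′ on the gene's strand, in capitals where the motif or its reverse complement matches, the first 4 from members that fell and the others from members that rose. The stretches lie at chr21:41420549-41420581 for MX1, chr1:27672256-27672368 for IFI6, chr14:94110608-94110670 for IFI27, chr2:37156957-37157006 for EIF2AK2, chr1:1013364-1013419 for ISG15, chr10:89392487-89392549 for IFIT1, chr11:313980-314063 for IFITM1, chr11:320866-320932 for IFITM3, chr19:17405725-17405780 for BST2 and chr15:88638927-88638976 for ISG20, on the minus strand for IFI6, EIF2AK2, IFITM3 and BST2 and on the plus strand for the others.
MX1: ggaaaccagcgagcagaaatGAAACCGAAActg
IFI6: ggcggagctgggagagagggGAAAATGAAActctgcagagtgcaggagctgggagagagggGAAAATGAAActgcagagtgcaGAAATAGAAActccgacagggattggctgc
IFI27: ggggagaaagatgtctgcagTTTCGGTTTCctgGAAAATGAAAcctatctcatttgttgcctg
EIF2AK2: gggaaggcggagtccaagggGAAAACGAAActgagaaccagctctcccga
ISG15: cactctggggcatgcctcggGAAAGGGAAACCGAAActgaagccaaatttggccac
IFIT1: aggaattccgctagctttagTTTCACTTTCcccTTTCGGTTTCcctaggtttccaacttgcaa
IFITM1: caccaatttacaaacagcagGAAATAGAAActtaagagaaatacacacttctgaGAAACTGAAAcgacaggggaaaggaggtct
IFITM3: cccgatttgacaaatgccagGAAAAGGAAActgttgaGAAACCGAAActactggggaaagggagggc
BST2: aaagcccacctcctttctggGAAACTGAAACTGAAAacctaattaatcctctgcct
ISG20: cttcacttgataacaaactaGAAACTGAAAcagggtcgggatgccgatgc
BST2 and ISG15 carry overlapping matches in which the repeated letters run on, and IFI6 carries 3 matches, 2 of them in a near-repeat. A match is a description of the letters, not a measured binding site.

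The members did not move as a block. STAT2, IRF9, IRF1, MX1, IFI6, IFI27, IFI44L, SAMD9L, CMPK2 and IFIH1 fell with all 3 hairpins, whereas OASL, HERC6, ISG20 and IFITM2 rose with all 3. MX2 and XAF1 were lower with all 3 as well, but the filter on low counts fixed that direction, as described below. Expression was tested with edgeR's quasi-likelihood test, adjusted over 17532 genes, and a gene is called at an adjusted p under 0.05. With shRNA1, 8 of the 40 members were called higher (background over all tested genes, 26.8%) and 17 lower (background 30.6%). With shRNA2, 6 were called higher (background 24.6%) and 16 lower (background 28.4%). With shRNA3, 12 were called higher (background 26.4%) and 17 lower (background 27.6%). For the mean of the 3 shRNAs, 9 were called higher (background 27.9%) and 18 lower (background 32.2%). In the order shRNA1, shRNA2, shRNA3 and mean, the members called lower made up 42.5%, 40%, 42.5% and 45% of the list, each above the share over all genes. Those called higher made up 20%, 15%, 30% and 22.5%, below the background except with shRNA3. The median log2 fold change of the members was -0.45 with shRNA1, -0.57 with shRNA2, -0.58 with shRNA3 and -0.48 for the mean, beside -0.02, -0.05, -0.03 and -0.03 over all tested genes. The list was chosen with earlier results of these data known, so its shares and medians are descriptions and no independent support. They include MX2 and XAF1. Without shRNA3 library 3, whose level differs from libraries 1 and 2, the counts with shRNA1 became 13 higher and 21 lower and those with shRNA2 became 11 and 25. Without libraries 1 and 2, they became 13 and 21, and 11 and 25, and shRNA3 had 7 higher and 16 lower.

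All 40 members passed the filter on low counts, but MX2 and XAF1, above it in 2 and 0 of the 9 shRNA libraries, passed only through NC, where they were high, and so had to differ. Over the other 38 members, 15, 14, 15 and 16 were called lower with shRNA1, shRNA2, shRNA3 and for the mean, and the counts called higher were 8, 6, 12 and 9. In 7 members all 9 shRNA libraries lay above all 3 NC libraries, in 18 all 9 lay below, and in 15 the groups overlapped. The share over all tested genes was not computed, so these counts are not read as a trait of the members. The 3 comparisons share their NC libraries and are therefore given side by side, not as separate support. The heat map of members by library and the plot of fold changes by role show both directions.

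**Figure D1:**
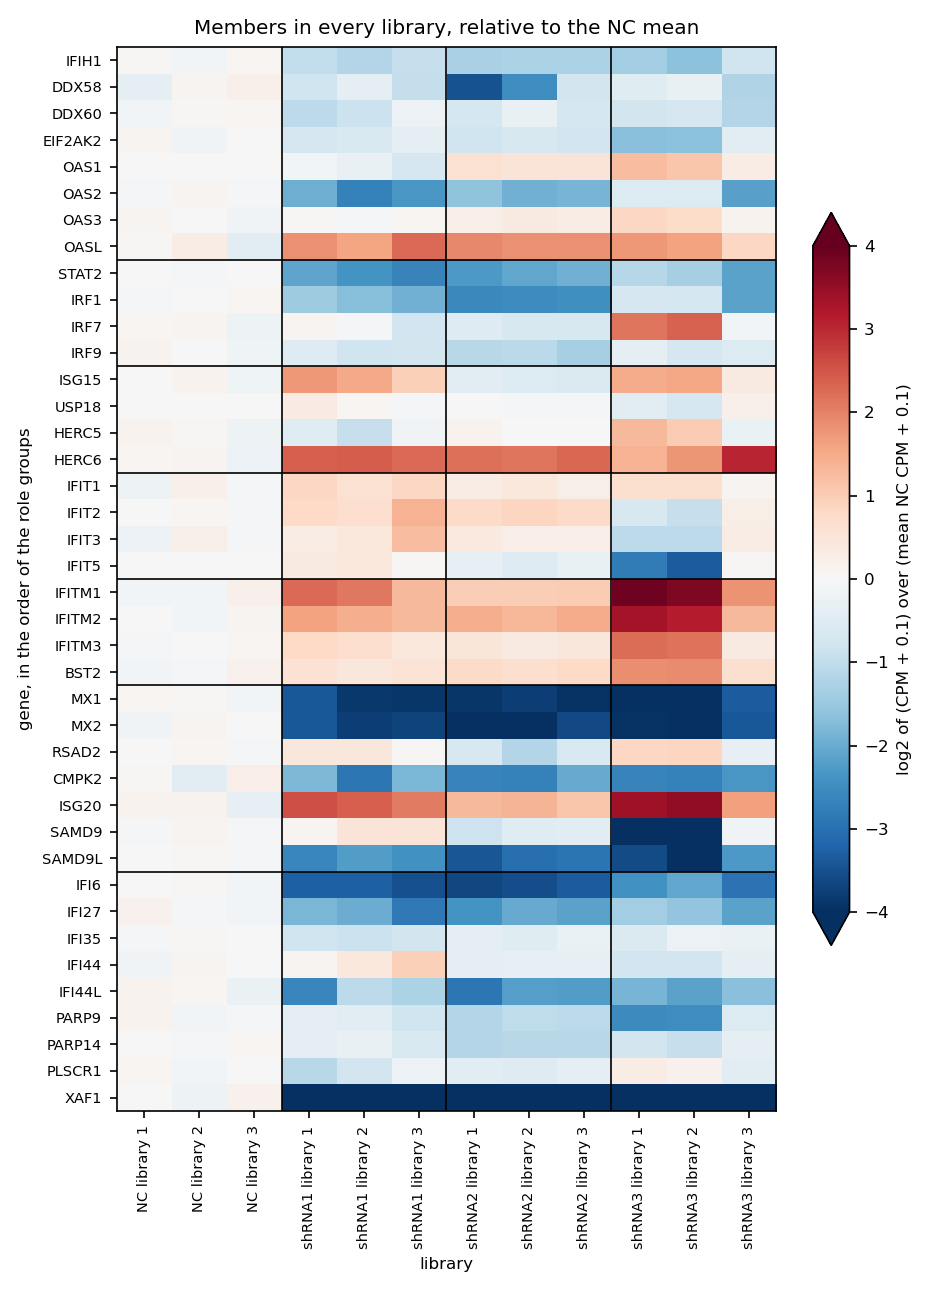
Level of each of the 40 members (rows, by role group) in each of the 12 libraries (columns), as the log2 of (CPM + 0.1) over (mean NC CPM + 0.1), red above and blue below the NC mean, with the scale ending at 4 either way. MX1, MX2, IFI6 and XAF1 are blue in all 9 shRNA libraries, IFITM1, ISG20 and HERC6 are red in all 9, and shRNA3 libraries 1 and 2 differ from library 3 in SAMD9, IFIT5, IRF7 and the IFITM genes.

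**Figure D2:**
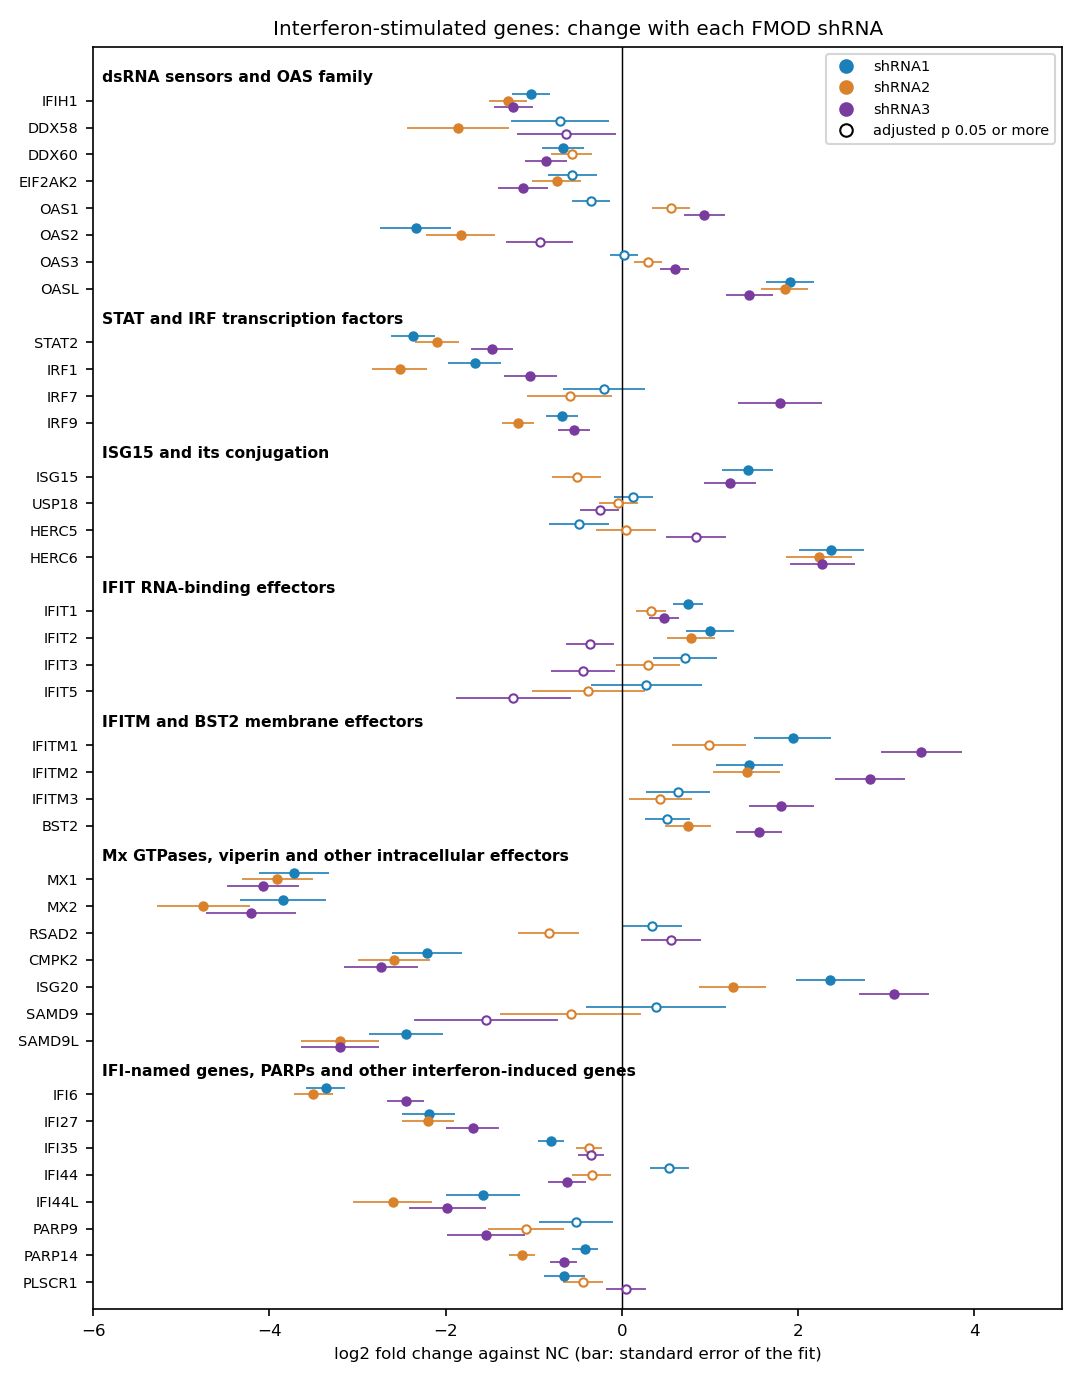
Log2 fold change against NC with its standard error (horizontal axis) for 39 members in 7 role groups, coloured by shRNA, filled where the adjusted p is under 0.05. XAF1 is left out because 0 or 1 count per shRNA group gives no fitted size. The MX, IFI6 and STAT2 points lie far left for all 3 shRNAs and the IFITM, ISG20, HERC6 and OASL points lie right.

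The transcription factors of the pathway were lower with every hairpin except for IRF7. With shRNA1, shRNA2 and shRNA3 alike, 3 of 4 members fell (backgrounds 30.6%, 28.4% and 27.6%). STAT2, the subunit of ISGF3 that activates transcription, had 90.03, 87.5 and 91.2 CPM in NC, 20.8, 17 and 14 in shRNA1, 18.1, 21.2 and 23.4 in shRNA2 and 40.9, 35.8 and 20.3 in shRNA3. All 9 shRNA libraries were below NC, with shRNA3 libraries 1 and 2 the highest of them. The log2 fold changes were -2.37 ± 0.25, -2.1 ± 0.25 and -1.47 ± 0.24 (adjusted p = 1.4e-05, 3.22e-05 and 0.000369), and with shRNA3 the value was -2.11 without libraries 1 and 2. IRF9, the DNA-binding subunit of ISGF3, measured 22.6, 20.6 and 18.3 CPM in NC, 14.2, 11.7 and 12.3 in shRNA1, 9.43, 9.58 and 8.09 in shRNA2 and 15.7, 12.8 and 13.9 in shRNA3. Its fall was smaller, with log2 fold changes of -0.68 ± 0.18, -1.18 ± 0.18 and -0.54 ± 0.18 (adjusted p = 0.00611, 0.000203 and 0.0231). The shRNA3 call was lost without NC library 1 or 2, shRNA2 library 3 or shRNA3 library 2 (adjusted p from 0.0503 to 0.113). IRF1, a factor that binds similar elements, was at 138, 139 and 148 CPM in NC, 52.5, 43.9 and 37 in shRNA1, 23.5, 24.9 and 25.8 in shRNA2 and 88.8, 86.4 and 32.3 in shRNA3. The groups did not overlap with NC, and shRNA2 was lowest. IRF1 changed by log2 -1.67 ± 0.30, -2.52 ± 0.31 and -1.04 ± 0.30 (adjusted p = 0.000698, 5.12e-05 and 0.0122), and -2.1 with shRNA3 without libraries 1 and 2. IRF7, the factor that amplifies interferon gene transcription, stood at 15.5, 15.7 and 12.7 CPM in NC, 15.6, 13.9 and 8.46 in shRNA1, 10.3, 9.36 and 9.42 in shRNA2 and 64.4, 74.8 and 13.4 in shRNA3. Only shRNA3 libraries 1 and 2 were above all NC libraries, and library 3 lay within the NC range. IRF7 was called with shRNA3 alone (1.8 ± 0.48, adjusted p = 0.00811), and without libraries 1 and 2 its log2 fold change was -0.09 (adjusted p = 0.79). With shRNA1 and shRNA2 its log2 fold changes were -0.2 ± 0.47 and -0.59 ± 0.48 (adjusted p = 0.733 and 0.318). All 4 members of this group differed among the 3 shRNAs (adjusted p = 0.032 for STAT2, 0.0149 for IRF1, 0.00916 for IRF7 and 0.0377 for IRF9, background 32.7% of all tested genes). The plot of STAT and IRF levels shows the tight NC and shRNA groups and the split within shRNA3.

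**Figure D3:**
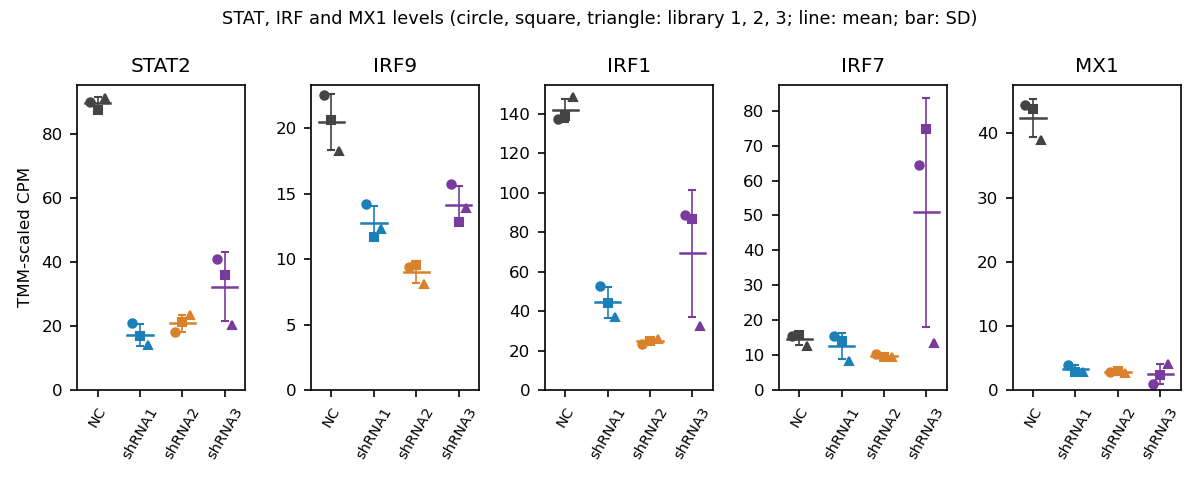
TMM-scaled CPM (vertical axes, each from 0) of STAT2, IRF9, IRF1, IRF7 and MX1 in the 12 libraries, with markers for libraries 1 to 3, the group mean as a line and the SD as a bar. NC is highest for all but IRF7, where shRNA3 libraries 1 and 2 stand at 64.4 and 74.8 CPM and library 3 at 13.4.

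Among the 8 RNA sensors and OAS genes, 1 member rose and 4 fell for the mean of the 3 shRNAs (backgrounds 27.9% and 32.2%). With shRNA1 1 rose and 3 fell, with shRNA2 1 rose and 4 fell, and with shRNA3 3 rose and 3 fell. The backgrounds of the single hairpins were 24.6% to 26.8% higher and 27.6% to 30.6% lower. IFIH1, which encodes MDA5, the sensor of long double-stranded RNA, had 28.2, 25.3 and 28.6 CPM in NC, 13.7, 12.1 and 14.5 in shRNA1, 11.1, 11.3 and 11.4 in shRNA2 and 10.4, 8.67 and 15.8 in shRNA3. All shRNA libraries were below NC, by log2 -1.03 ± 0.22, -1.29 ± 0.22 and -1.23 ± 0.22 with shRNA1, shRNA2 and shRNA3 (adjusted p = 0.00175, 0.000445 and 0.000604). DDX60, a helicase that acts with RIG-I-like receptors, measured 22.9, 25.3 and 26 CPM in NC, 12, 13.7 and 20.8 in shRNA1, 15.2, 19.96 and 15 in shRNA2 and 14.8, 15.4 and 10.8 in shRNA3. It was below NC in all 9 libraries but by less, with log2 fold changes of -0.67 ± 0.24, -0.57 ± 0.23 and -0.86 ± 0.24 and adjusted p of 0.0286, 0.0615 and 0.00951, so shRNA2 did not pass. Its shRNA1 call was lost without NC library 2 or 3 or shRNA1 library 1 or 2 (adjusted p from 0.072 to 0.114). EIF2AK2, the kinase PKR that halts translation when it binds double-stranded RNA, had 123, 102 and 114 CPM in NC, 70.6, 73.2 and 85.2 in shRNA1, 64.6, 72.4 and 65.8 in shRNA2 and 35.4, 35.9 and 84 in shRNA3. NC stood apart from all 9 shRNA libraries, and shRNA3 libraries 1 and 2 were lowest. With shRNA1, shRNA2 and shRNA3 the log2 fold changes were -0.56 ± 0.28, -0.74 ± 0.28 and -1.12 ± 0.28 (adjusted p = 0.105, 0.0438 and 0.00578). With the NC and compared libraries alone in the fit, shRNA1 was called (adjusted p = 0.00197) and shRNA3 was not (adjusted p = 0.0541). The shRNA2 call was lost when any 1 NC, shRNA1 or shRNA2 library was left out (adjusted p from 0.0599 to 0.122), and the shRNA3 value was -0.4 without libraries 1 and 2. DDX58 (RIG-I) was called lower only with shRNA2 (-1.86 ± 0.58, adjusted p = 0.0187, and 0.185 for a difference among the shRNAs), where its libraries ranged from 0.351 to 2.88 CPM against 3.79 to 5.68 in NC.

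The 4 OAS genes, whose enzymes make the oligoadenylates that activate RNase L, except for OASL, which binds RIG-I instead, went separate ways. OAS2 levels were 10.5, 11.9 and 10.7 CPM in NC, 2.79, 1.6 and 2.12 in shRNA1, 3.51, 2.82 and 2.94 in shRNA2 and 7.56, 7.51 and 2.38 in shRNA3, lower than NC in every shRNA library. Its log2 fold changes were -2.34 ± 0.40, -1.83 ± 0.39 and -0.93 ± 0.38 (adjusted p = 0.000453, 0.00214 and 0.0583), with shRNA3 past the threshold, at -2.17, without libraries 1 and 2 (adjusted p = 0.000122). OASL went the other way, with 22.8, 26.9 and 16 CPM in NC, 77.4, 65.5 and 105 in shRNA1, 83, 77.2 and 77.4 in shRNA2 and 73.7, 66.8 and 38.7 in shRNA3. Every shRNA library exceeded every NC library, and OASL rose by log2 1.91 ± 0.27, 1.85 ± 0.27 and 1.45 ± 0.27 (adjusted p = 0.00012, 0.000159 and 0.000834). OAS1 stood at 25.8, 25.7 and 25.7 CPM in NC, 23.6, 20.8 and 16.1 in shRNA1, 39.5, 37 and 37.1 in shRNA2 and 61, 55.4 and 31.9 in shRNA3, with shRNA1 below NC and the other hairpins above it. It was called with shRNA3 alone (0.94 ± 0.23, adjusted p = 0.00423), and that call was lost without libraries 1 and 2 (0.34). With the NC and shRNA2 libraries alone in the fit, OAS1 was called higher (0.56, adjusted p = 5.75e-06). Without shRNA3 library 3, OAS1 was called lower with shRNA1 (-0.34, adjusted p = 0.0235). OAS3 had 137, 125 and 115 CPM in NC, 129, 123 and 132 in shRNA1, 149.5, 159.9 and 153 in shRNA2 and 221, 208 and 139.5 in shRNA3, overlapping NC with shRNA1 only. Its call with shRNA3 (0.6 ± 0.16, adjusted p = 0.00885) was likewise lost without libraries 1 and 2 (0.18, adjusted p = 0.204). OAS1, OAS2 and OAS3 differed among the shRNAs (adjusted p = 0.00872, 0.0389 and 0.0474). A non-coding gene is annotated on the strand opposite OAS1, OAS2 and OAS3, and whether counting used strand is not given in the sources used here, so reads of the pair cannot be told apart.

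Some of the largest changes were in the Mx genes and their companions. With every hairpin, 4 of 7 members of this group fell (backgrounds 30.6%, 28.4% and 27.6%) and 1 rose (backgrounds 26.8%, 24.6% and 26.4%). The 4 include MX2, which had to differ. MX1, a dynamin-like GTPase that blocks influenza and other RNA viruses, had 44.4, 43.8 and 39 CPM in NC, 3.98, 2.86 and 2.79 in shRNA1, 2.75, 3.04 and 2.66 in shRNA2 and 0.964, 2.33 and 4.12 in shRNA3. No shRNA library exceeded 4.12 CPM. The log2 fold changes of MX1 were -3.72 ± 0.40, -3.91 ± 0.40 and -4.07 ± 0.41 (adjusted p = 1.6e-05, 1.26e-05 and 1.09e-05). MX2, the nuclear-envelope relative of MX1 that restricts HIV, stood at 6.61, 7.78 and 7.41 CPM in NC, 0.597, 0.436 and 0.465 in shRNA1, 0.117, 0.169 and 0.499 in shRNA2 and 0.371, 0.146 and 0.596 in shRNA3. The shRNA libraries held 2 to 12 counts of it against 131 to 158 in NC, with log2 fold changes of -3.85 ± 0.49, -4.75 ± 0.53 and -4.21 ± 0.51. Because MX2 passed the filter on low counts only through NC, no p-value is given for it. SAMD9L, a cytoplasmic restriction factor of poxviruses, measured 11.8, 11.9 and 11.2 CPM in NC, 1.84, 2.42 and 2.12 in shRNA1, 0.995, 1.35 and 1.44 in shRNA2 and 0.89, 0.51 and 2.29 in shRNA3. It was below NC throughout, at log2 -2.45 ± 0.42, -3.2 ± 0.44 and -3.2 ± 0.44 (adjusted p = 0.000443, 9.97e-05 and 0.000105). CMPK2, a mitochondrial nucleotide kinase, had 4.04, 2.91 and 4.72 CPM in NC, 1.04, 0.436 and 1.03 in shRNA1, 0.527, 0.507 and 0.886 in shRNA2 and 0.519, 0.51 and 0.695 in shRNA3, again with no overlap, and log2 fold changes of -2.21 ± 0.40, -2.59 ± 0.41 and -2.73 ± 0.42 (adjusted p = 0.000661, 0.000295 and 0.000238). Its neighbour RSAD2, which encodes the antiviral enzyme viperin, and whose annotation overlaps CMPK2 on the opposite strand, did not follow it. RSAD2 levels were 2.78, 3 and 2.69 CPM in NC, 3.88, 3.88 and 2.94 in shRNA1, 1.76, 1.18 and 1.83 in shRNA2 and 5.12, 5.25 and 2.23 in shRNA3, and no hairpin passed the threshold (adjusted p = 0.416, 0.0656 and 0.182). It was lowest with shRNA2 and differed among the shRNAs (adjusted p = 0.0272), and with shRNA3 its log2 fold change of 0.56 ± 0.34 became -0.31 without libraries 1 and 2. ISG20, a 3′ to 5′ exonuclease for single-stranded RNA, was the member that rose, with 11.9, 11.8 and 8.47 CPM in NC, 64.4, 56.3 and 45.6 in shRNA1, 26.4, 27.4 and 23 in shRNA2 and 114, 126 and 33.9 in shRNA3. All shRNA libraries were above NC, shRNA2 least. ISG20 rose by log2 2.37 ± 0.39, 1.26 ± 0.38 and 3.09 ± 0.40 (adjusted p = 0.00037, 0.0163 and 7.53e-05). The shRNA2 call was lost without NC library 3 (adjusted p = 0.0647), and the shRNA3 value was 1.69 without libraries 1 and 2. SAMD9, the paralogue of SAMD9L, was not called, at 42.3 ± 3.14 CPM in NC and 55.5 ± 8.64, 28.3 ± 3.86 and 14.3 ± 21.1 (mean ± SD, n = 3) with the shRNAs, but within shRNA3 it was 17.8 times higher in library 3 than in the mean of libraries 1 and 2.

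Of the 9 IFI-named genes, PARPs and other interferon-induced genes, 7 fell for the mean of the 3 shRNAs (background 32.2%) and 0 rose (background 27.9%). The 7 include XAF1, which had to differ. At an unadjusted p under 0.05, 0 had a positive change, since all 9 mean changes were negative. IFI6, a mitochondrial and endoplasmic reticulum protein that protects cells from flavivirus replication and from apoptosis, was the most abundant, with 113, 115 and 104 CPM in NC, 11.4, 11.3 and 9.5 in shRNA1, 8.84, 9.41 and 11 in shRNA2 and 20.4, 26 and 14.3 in shRNA3. NC was many times above all 9 shRNA libraries, and shRNA3 lay above the other hairpins. Its log2 fold changes were -3.36 ± 0.22, -3.5 ± 0.22 and -2.45 ± 0.21 (adjusted p = 5.16e-07, 4.2e-07 and 3.52e-06), and the hairpins differed (adjusted p = 0.00846). IFI27, a relative of IFI6, measured 21.1, 17.6 and 17.4 CPM in NC, 5.17, 4.65 and 2.48 in shRNA1, 3.45, 4.57 and 4.16 in shRNA2 and 7.04, 6.2 and 4.17 in shRNA3. It fell in every group, by log2 -2.19 ± 0.30, -2.2 ± 0.30 and -1.69 ± 0.30 (adjusted p = 0.000107, 0.00011 and 0.000619). IFI44L, a negative-feedback gene of the response, had 3.58, 3.4 and 2.69 CPM in NC, 0.448, 1.5 and 1.29 in shRNA1, 0.351, 0.62 and 0.609 in shRNA2 and 0.816, 0.656 and 0.944 in shRNA3 and fell too, at log2 -1.57 ± 0.42, -2.6 ± 0.45 and -1.98 ± 0.44 (adjusted p = 0.0075, 0.000527 and 0.00254). Its neighbour IFI44 did not move with it, at 21.5, 25.6 and 23.6 CPM in NC, 25.6, 31.5 and 45.8 in shRNA1, 18.4, 18.7 and 18.8 in shRNA2 and 13.7, 13.8 and 18.5 in shRNA3. IFI44 was called only with shRNA3 (-0.62 ± 0.22, adjusted p = 0.0316). That call was lost without libraries 1 and 2 (adjusted p = 0.303) or without any of 5 single libraries, namely NC 2 or 3, shRNA2 library 3 and shRNA3 library 1 or 2 (adjusted p from 0.0643 to 0.127). With shRNA1 its value was 0.54 ± 0.22 (adjusted p = 0.0502), and the shRNAs differed (adjusted p = 0.00872).

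XAF1, a pro-apoptotic binding partner of XIAP, was close to lost. The NC libraries held 98, 86 and 109 counts (4.95, 4.24 and 5.53 CPM), the shRNA1 libraries 0, 0 and 1, the shRNA2 libraries 1, 0 and 0, and all 3 shRNA3 libraries 0. NC exceeded shRNA1 by a ratio of 294 (95% counting interval 52.3 to 11600) and shRNA2 by 258 (45.9 to 10200), and XAF1 was at least 24.9-fold lower with shRNA3, against a floor of 3 counts per library. These intervals and the floor cover counting error only, and the median of the members is the same, at -0.45, -0.57 and -0.58, with XAF1 set to its bound. IFI35, a partner of NMI in cytokine signalling, fell less, from 24.4, 25.9 and 24.7 CPM in NC to 14.4, 13.7 and 14.9 in shRNA1, 19.3, 18 and 20.8 in shRNA2 and 16.8, 21.1 and 20.9 in shRNA3. Its groups did not overlap NC, but only shRNA1 passed, with log2 fold changes of -0.8 ± 0.15, -0.37 ± 0.15 and -0.35 ± 0.15 (adjusted p = 0.000941, 0.0616 and 0.0719, and 0.0605 for a difference among the shRNAs). PARP14, a macrodomain ADP-ribosyltransferase, had 98.5, 92.5 and 103 CPM in NC, 77.1, 79.2 and 64.2 in shRNA1, 43.4, 45.7 and 45.7 in shRNA2 and 58.6, 51.6 and 76 in shRNA3. All shRNA libraries were below NC, shRNA2 the most, at log2 -0.42 ± 0.15, -1.13 ± 0.15 and -0.66 ± 0.15 (adjusted p = 0.0351, 9.94e-05 and 0.00352). The shRNA1 call of PARP14 was lost when any 1 NC, shRNA1 or shRNA2 library was left out (adjusted p from 0.0562 to 0.117) and the shRNA3 call without libraries 1 and 2 (-0.34, adjusted p = 0.0555). PARP9, which forms a complex with the ubiquitin ligase DTX3L, measured 73.6, 61.7 and 65 CPM in NC, 51.4, 49.8 and 38.6 in shRNA1, 29.6, 32.8 and 31.9 in shRNA2 and 11.3, 11.8 and 45.4 in shRNA3. Libraries 1 and 2 of shRNA3 were the lowest, and the log2 fold changes were -0.52 ± 0.42, -1.09 ± 0.43 and -1.54 ± 0.44 (adjusted p = 0.317, 0.0512 and 0.0108), with -0.53 for shRNA3 without those libraries. With the NC and compared libraries alone in the fit, shRNA1 and shRNA2 were called (adjusted p = 0.00596 and 3.09e-09) and shRNA3 was not (adjusted p = 0.075). PARP9 fell for the mean of the 3 shRNAs (-1.05 ± 0.33, adjusted p = 0.0163), a call lost without NC library 1 (adjusted p = 0.0671). PLSCR1, a membrane scramblase, was called lower with shRNA1 alone (-0.65 ± 0.23, adjusted p = 0.0293, and 0.0681 for a difference among the shRNAs), at 68 ± 4.29 CPM in NC and 43.2 ± 13.7 with shRNA1 (mean ± SD, n = 3).

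Of the 4 members for ISG15 and its conjugation, ISG15 and HERC5 differed among the shRNAs, HERC6 rose with every hairpin and USP18 was called with none. ISG15, the ubiquitin-like protein that is attached to other proteins after interferon, had 148, 164 and 131 CPM in NC, 494, 419 and 286 in shRNA1, 112, 100.4 and 98.5 in shRNA2 and 418, 434 and 191 in shRNA3. All libraries of shRNA1 and shRNA3 were above NC and all of shRNA2 below. It rose with shRNA1 (1.43 ± 0.29, adjusted p = 0.00132) and shRNA3 (1.23 ± 0.29, adjusted p = 0.00356), while with shRNA2 the value was -0.51 ± 0.28 (adjusted p = 0.148). With the NC and shRNA2 libraries alone in the fit, ISG15 was called lower (adjusted p = 1.76e-05). The hairpins differed (adjusted p = 0.00482). The shRNA3 call was lost without libraries 1 and 2 (0.4, adjusted p = 0.147), and the call for the mean (0.72 ± 0.24, adjusted p = 0.0227) without NC library 1 or 3 (adjusted p = 0.0693 and 0.096). HERC6, a relative of the human ISG15 ligase HERC5, had 4.04, 4.14 and 3.2 CPM in NC, 20.1, 20.6 and 18.5 in shRNA1, 17.7, 16.9 and 19.1 in shRNA2 and 10.01, 13.3 and 31.7 in shRNA3. Every shRNA library was above NC, and HERC6 rose by log2 2.38 ± 0.37, 2.24 ± 0.37 and 2.28 ± 0.37 (adjusted p = 0.000221, 0.000357 and 0.000329). HERC5 itself measured 16.4, 15.2 and 13 CPM in NC, 10.6, 7.85 and 13.5 in shRNA1, 16.3, 14.7 and 15.2 in shRNA2 and 37.1, 30.4 and 12.3 in shRNA3 and passed with no hairpin (adjusted p = 0.247, 0.911 and 0.0569). Its shRNA3 libraries 1 and 2 were above NC and library 3 was below, and the shRNAs differed (adjusted p = 0.0319). USP18, the protease that removes ISG15 and also restrains the receptor, was not called with any hairpin, at 17.3 ± 0.265 CPM in NC against 18.9 ± 2.58, 16.9 ± 0.327 and 14.5 ± 4.93 (mean ± SD, n = 3). The enzymes that charge and transfer ISG15 are no members but complete the pathway: UBA7, its E1 enzyme, fell from 14.3 CPM to 1.89, 2.03 and 3.21, and UBE2L6, its E2 enzyme, from 88.6 CPM to 1.92, 0.606 and 1.91 (log2 fold changes -5.52 ± 0.26, -7.18 ± 0.28 and -5.52 ± 0.26, adjusted p = 7.51e-08, 2.42e-08 and 7.01e-08).

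The 4 IFIT genes, which encode tetratricopeptide proteins that bind viral RNA ends, had 1 of 4 called higher for the mean of the 3 shRNAs, near the background of 27.9%. With shRNA1, 2 of 4 were called higher, and with shRNA2 and shRNA3 1 each (backgrounds 26.8%, 24.6% and 26.4%). IFIT2 had 30.4, 32.3 and 29.3 CPM in NC, 53.7, 49 and 81.1 in shRNA1, 52.1, 55.3 and 52.1 in shRNA2 and 19.5, 16.2 and 35.7 in shRNA3. All shRNA1 and shRNA2 libraries and shRNA3 library 3 were above NC, and shRNA3 libraries 1 and 2 were below. IFIT2 rose with shRNA1 (1.0 ± 0.27, adjusted p = 0.00837) and shRNA2 (0.79 ± 0.27, adjusted p = 0.028), and the shRNAs differed (adjusted p = 0.0125). Its shRNA2 call was lost without any 1 NC library or shRNA2 library 1 or 2 (adjusted p from 0.0586 to 0.0832), and with shRNA3 the value turned from -0.36 ± 0.27 to 0.25 without libraries 1 and 2. IFIT1 ranged from 29.2 to 38.5 CPM in NC and from 35.9 to 59.2 in the shRNA libraries, of which 8 of 9 were above all NC libraries. It rose with shRNA1 (0.75 ± 0.17, adjusted p = 0.00297) and shRNA3 (0.48 ± 0.17, adjusted p = 0.033). Within shRNA3, libraries 1 and 2 had a mean of 52.2 CPM and library 3 had 35.9, within the NC range. The rise of IFIT1 with shRNA3 therefore rested on libraries 1 and 2. IFIT3 and IFIT5 were called with no hairpin, with shRNA libraries from 13.5 to 66 CPM for IFIT3 against 23.7 to 33.2 in NC, and from 1.39 to 20.01 for IFIT5 against 14.6 to 15.2. In shRNA3, IFIT5 was 8.81 times higher in library 3 than in libraries 1 and 2. LIPA is annotated opposite IFIT1, IFIT2 and IFIT3, so without stated strand their reads cannot be told from its own.

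The membrane effectors rose together: all 4 members were called higher for the mean of the 3 shRNAs and with shRNA3 (backgrounds 27.9% and 26.4%). With shRNA1 and with shRNA2, 2 of 4 were called higher (backgrounds 26.8% and 24.6%). IFITM1, which holds viral membranes back from fusion at the cell surface, had 122, 122 and 149.7 CPM in NC, 626, 563 and 319.6 in shRNA1, 259, 258 and 265 in shRNA2 and 1933, 1761 and 452 in shRNA3. Every shRNA library was above NC, and shRNA3 libraries 1 and 2 stood far above all others. Its log2 fold changes were 1.94 ± 0.44, 0.99 ± 0.42 and 3.4 ± 0.46 (adjusted p = 0.00271, 0.0699 and 9.86e-05), with shRNA2 short of the threshold and 1.81 for shRNA3 without libraries 1 and 2. With the NC and shRNA2 libraries alone in the fit, IFITM1 was called higher (adjusted p = 2.84e-09). IFITM2, its endosomal relative, measured 92, 86.4 and 98.8 CPM in NC, 282, 252 and 225 in shRNA1, 255, 231 and 258 in shRNA2 and 920.5, 818 and 225 in shRNA3 and was likewise above NC throughout. It rose by log2 1.45 ± 0.38, 1.42 ± 0.38 and 2.82 ± 0.40 (adjusted p = 0.00663, 0.00799 and 0.000129), and by 1.31 with shRNA3 without those libraries. IFITM3, the endosomal restriction factor of influenza virus, was the most abundant member, with 492, 519.7 and 554 CPM in NC, 912, 833 and 692 in shRNA1, 729, 675 and 715 in shRNA2 and 2444, 2373 and 673 in shRNA3. No shRNA library overlapped NC, yet only shRNA3 passed, with log2 fold changes of 0.64 ± 0.36, 0.44 ± 0.36 and 1.81 ± 0.37 (adjusted p = 0.15, 0.329 and 0.00161) and 0.4 for shRNA3 without libraries 1 and 2. With the NC and compared libraries alone in the fit, IFITM3 was also called higher with shRNA1 and shRNA2 (adjusted p = 0.000713 and 8.2e-06). The call of IFITM3 for the mean (0.96 ± 0.31, adjusted p = 0.0189) was lost without any 1 NC library (adjusted p from 0.0525 to 0.0694). BST2, or tetherin, which ties budding virions to the cell, had 73.8, 76.7 and 89.2 CPM in NC, 119, 108 and 117 in shRNA1, 137, 127 and 139 in shRNA2 and 289, 294 and 125 in shRNA3. Its libraries did not overlap NC, and the log2 fold changes were 0.52 ± 0.26, 0.75 ± 0.26 and 1.56 ± 0.26 (adjusted p = 0.101, 0.0285 and 0.000425), or 0.67 with shRNA3 without libraries 1 and 2. The shRNA2 call of BST2 was lost without NC library 1 or 2 or shRNA2 library 1 or 3 (adjusted p from 0.0632 to 0.0855). With the NC and shRNA1 libraries alone in the fit, BST2 was called higher (adjusted p = 0.00184). All 4 differed among the shRNAs (adjusted p = 0.00864 for IFITM1, 0.02 for IFITM2, 0.0239 for IFITM3 and 0.0215 for BST2, background 32.7% of all tested genes). IFITM1, IFITM2 and IFITM3 are neighbours of related sequence on chromosome 11, and the annotated span of IFITM2 covers that of IFITM1. The split of reads between these genes is therefore uncertain.

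Across the list, 19 of 40 members (47.5%) differed among the 3 shRNAs, beside 32.7% of all tested genes, and this count rested on single libraries. It was 9 without shRNA1 library 2 and 33 without shRNA3 library 3. It was 11 without shRNA1 library 1, 11, 11 and 12 without shRNA2 libraries 1, 2 and 3, and 10 without shRNA3 library 1 or 2. Libraries 1 and 2 of shRNA3 both lay outside the range of the 6 shRNA1 and shRNA2 libraries while library 3 lay inside for 22 of 40 members. Library 3 was within that range for 30 members, library 1 for 11 and library 2 for 10. The share over all tested genes was not computed, so these counts are not read as a trait of the members. Libraries 1 and 2 differed from library 3 across all tested genes as well (Pearson 0.916 to 0.919). Relative to library 3, the mean of libraries 1 and 2 was 5.19 times higher for IRF7, 4.09 times for IFITM1, 3.86 times for IFITM2, 3.58 times for IFITM3, 3.53 times for ISG20 and 3.16 times for OAS2. It was lower for SAMD9, IFIT5, PARP9 and SAMD9L. Library 3 stood at 17.8, 8.81, 3.94 and 3.26 times their mean for these genes. Over the 39 members with a value, the log2 ratio of libraries 1 and 2 to library 3 was correlated with the GC content of the longest transcript (Spearman 0.568, Pearson 0.575) and with its length (Spearman -0.457). Over 17035 tested genes the same correlations were 0.186, 0.169 and -0.128. These are descriptions across genes, which share the 3 libraries and are not replicates, and the part of GC content in the split was not tested. Of the 29 members called with shRNA3, 22 were called again in the same direction without libraries 1 and 2, as were all 25 called with shRNA1, all 22 called with shRNA2 and all 27 called for the mean. With the NC and shRNA3 libraries alone in the fit, 23 of the 29 were called again, and EIF2AK2, IRF1, IRF9, PARP9 and IFI44 were among those lost (adjusted p from 0.0541 to 0.106).

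**Figure D4:**
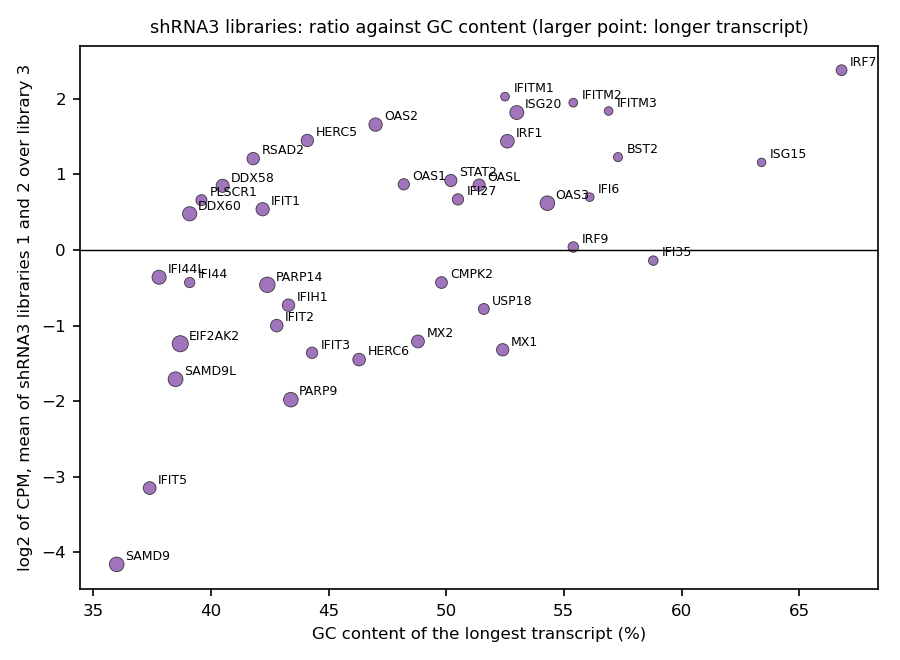
Log2 ratio of the mean CPM of shRNA3 libraries 1 and 2 to library 3 (vertical axis) against the GC content of each member's longest transcript in percent (horizontal axis), with larger points for longer transcripts, for 39 members. SAMD9 and IFIT5, at the low end of GC content, lie lowest, and IRF7, the highest in GC content, lies highest.

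Per kilobase of exon, the members spanned a wide range in NC. IFITM3 was highest at 386.9 CPM per kilobase, followed by ISG15 at 157, IFI6 at 128, IFITM1 at 122, BST2 at 71.4 and IFITM2 at 59.9. IRF1 came next at 18.2, and MX2 and IFI44L were last at 0.557 and 0.315. With shRNA1 the level of IFI6 per kilobase was 12.4 and with shRNA2 11.3, below IRF1 in NC. The sum over all 40 members, in CPM, was 2260 to 2300 in NC and 2270 to 7120 in the shRNA libraries. The IFITM and BST2 group made up 780 to 891 CPM of this in NC and 1290 to 5590 with the shRNAs, whereas the IFI and PARP group summed to 410 to 433 CPM in NC and 174 to 235 in the shRNA libraries.

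The upstream and downstream genes of the pathway were read from lists of its textbook genes. Of 10 interferon genes, 5 had no count in any library, and none passed the filter, with summed levels of 0.148 to 0.252 CPM in NC and 0.0993 to 2.67 in the shRNA libraries. The largest was IFNL1, a type III interferon, at 2.45 and 1.39 CPM (33 and 19 counts) in shRNA3 libraries 1 and 2 and 1 count in library 3. A count of 0 in a library allowed a level of up to 0.145 to 0.222 CPM. In the lists that follow, calls for the mean stand beside a background of 27.9% higher and 32.2% lower over all tested genes. Of 9 receptor chains and JAK kinases, 2 were called higher and 5 lower for the mean. The interferon gamma receptor genes rose for the mean: IFNGR1 went from 65.4 CPM in NC to 166, 133 and 92.5 (adjusted p = 0.00552, 0.0232 and 0.227) and IFNGR2 from 42.6 to 62.1, 60.4 and 128 (adjusted p = 0.0825, 0.111 and 0.000316). IFNAR2, the signalling chain of the type I receptor, fell from 25.4 CPM in NC to 16.4, 15 and 12.7 (adjusted p = 0.0473, 0.0235 and 0.00581). JAK1, the kinase all interferon receptors share, fell from 182 to 84.3, 88.2 and 109.7 CPM (log2 -1.11 ± 0.18, -1.04 ± 0.18 and -0.73 ± 0.18, adjusted p = 0.00037, 0.000594 and 0.0056). JAK2, which serves the interferon gamma receptor, fell from 16.3 to 8.82, 10.6 and 8.31 CPM (adjusted p = 0.00826, 0.0488 and 0.00546), and IL10RB, a chain of the type III receptor, from 38.4 to 23.1, 24.1 and 26.4 (adjusted p = 0.00647, 0.0115 and 0.0327). IFNAR1 passed in no comparison (adjusted p = 0.43, 0.14 and 0.984).

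Of 6 genes of the STAT family, 4 fell with each hairpin (backgrounds 30.6%, 28.4% and 27.6%). Beside STAT2, STAT3 went from 368 CPM in NC to 209, 146 and 257 (log2 -0.81 ± 0.20, -1.33 ± 0.21 and -0.52 ± 0.20, adjusted p = 0.00531, 0.000247 and 0.0491). STAT4 went from 8.91 to 2.61, 1.32 and 1.04 CPM (log2 -1.77 ± 0.47, -2.75 ± 0.50 and -3.05 ± 0.51, adjusted p = 0.00766, 0.000743 and 0.000434). STAT5A, a mediator of cytokine and growth-hormone signals, was close to lost, from 18.4 to 0.414, 0.569 and 0.232 CPM (log2 -5.45 ± 0.62, -5.0 ± 0.60 and -6.12 ± 0.66, adjusted p = 2.51e-05, 4.01e-05 and 1.91e-05). Its shRNA means lay near or under the cutoff of 0.556 CPM of the filter on low counts. STAT5B, in contrast, was called higher for the mean (0.52 ± 0.11, adjusted p = 0.00194). Of 12 nucleic acid sensing genes, 11 were tested, and 4 were called higher and 1 lower for the mean. TMEM173, which encodes the adaptor STING, rose from 16.5 CPM to 54.4, 50.1 and 75.1 (log2 1.72 ± 0.17, 1.6 ± 0.17 and 2.19 ± 0.17, adjusted p = 8.94e-06, 1.49e-05 and 2.07e-06). MB21D1, which encodes the cytosolic DNA sensor cGAS, rose from 22.4 to 64.9, 34.5 and 61.4 CPM (log2 1.53 ± 0.17, 0.62 ± 0.17 and 1.45 ± 0.17, adjusted p = 2.07e-05, 0.00842 and 3.29e-05). MAVS, the adaptor of RIG-I and MDA5, was called with no hairpin, at 142 CPM in NC and 129, 138 and 121 (adjusted p = 0.391, 0.807 and 0.16). ZBP1, a sensor of Z-form nucleic acid, was not tested, with 22 counts over the NC libraries and 3, 0 and 3 over those of shRNA1, shRNA2 and shRNA3. Of 9 negative regulators, 3 were called higher and 3 lower for the mean, each near that background. SOCS2 rose from 6.64 to 25.6, 23.1 and 20.5 CPM (adjusted p = 5.01e-05, 9.14e-05 and 0.000192), while the phosphatase PTPN2 fell from 54 to 26.2, 18.7 and 19 (adjusted p = 0.000503, 3.7e-05 and 4.44e-05), PTPN6 from 34.6 to 12.3, 19.3 and 21.8 (adjusted p = 2.35e-05, 0.00119 and 0.00507) and PIAS3 from 48.4 to 32.8, 32.2 and 34.6 (adjusted p = 0.0021, 0.00169 and 0.00558).

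A list of 32 further interferon-stimulated genes held 3 called higher and 22 called lower for the mean. Its median log2 fold changes were -0.97, -1.22, -1.01 and -0.98 for shRNA1, shRNA2, shRNA3 and the mean. Like the members, it was chosen with earlier results of these data known, so it is no independent support. Over all tested genes, 27.9% were called higher and 32.2% lower for the mean, and the medians were -0.02, -0.05, -0.03 and -0.03. The guanylate-binding protein GBP1, a target of interferon gamma, fell from 75.4 CPM to 1.63, 1.17 and 3.05 (log2 -5.53 ± 0.23, -6.0 ± 0.24 and -4.63 ± 0.22, adjusted p = 4.15e-08, 2.42e-08 and 8.31e-08), and GBP2 from 105 to 5.57, 8.15 and 44.5 (log2 -4.23 ± 0.54, -3.68 ± 0.52 and -1.24 ± 0.47, adjusted p = 5.6e-05, 0.000134 and 0.0444). The antiviral ubiquitin ligase gene TRIM22 fell from 16.6 to 0.6, 0.301 and 0.509 CPM, the apolipoprotein gene APOL1 from 166 to 11.3, 9.33 and 12.9, and the lysosomal gene LAMP3 from 61.4 to 1.55, 3.47 and 3.32. The death ligand gene TNFSF10 (TRAIL) fell from 35.6 to 4.28, 7.5 and 5.38 CPM and the nuclear body gene PML from 173 to 39.2, 41.4 and 97.3. EPSTI1 held 502 counts over the NC libraries, 3 over shRNA1 and 1 over shRNA3, ratios of 168 (95% counting interval 57 to 816) and 396 (70.7 to 15700). With shRNA2 its libraries held 0, 2 and 4 counts (log2 -6.13 ± 0.67). RTP4 held 227 counts in NC, 1 with shRNA1, 2 with shRNA2 and 0 with shRNA3, where it was at least 19.3-fold lower. Both EPSTI1 and RTP4 passed the filter on low counts only through NC and so, like XAF1, had to differ. The counts and medians of the list of 32 include them. The shRNA means of TRIM22 lay near or under the filter's cutoff of 0.556 CPM. APOL6, TRIM5, TRIM14, SP100, SP110, LGALS3BP and RNF213 fell with all 3 hairpins as well, with log2 fold changes from -0.6 for LGALS3BP with shRNA2 to -1.88 for APOL6 with shRNA2. The chemokine gene CCL5 rose from 0.403 CPM to 25.1, 7.33 and 34.3 (log2 5.94 ± 0.32, 4.17 ± 0.30 and 6.39 ± 0.32). Its NC mean lay under the filter's cutoff of 0.556 CPM, so CCL5 passed through the shRNA libraries, where it was high. The filter thus favoured a rise, and no p-value is given for CCL5. The counts and medians of the list of 32 include it. The aminopeptidase gene LAP3 rose from 31.3 to 61, 52 and 53.4 CPM. The plot of calls by list shows the share in each direction.

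**Figure D5:**
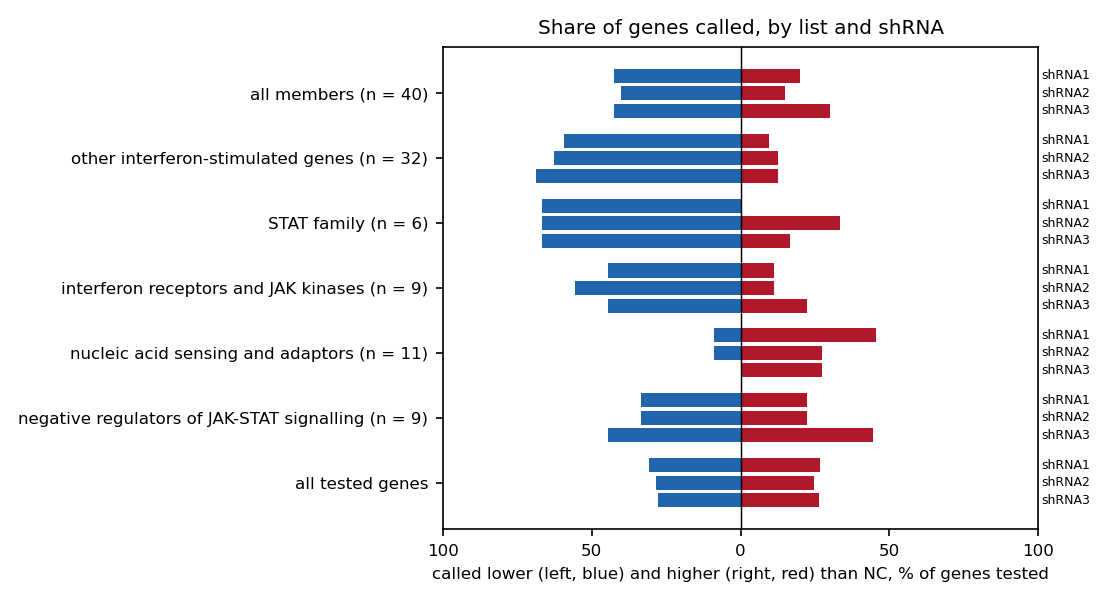
Percent of tested genes called lower (left) and higher (right) than NC at an adjusted p under 0.05, for the members, the 5 tested pathway lists and all tested genes, with a bar for each shRNA. The further interferon-stimulated genes and the STAT family have the longest bars to the left, and nucleic acid sensing has the shortest.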

How the data were processed

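The values are estimated counts for each gene in each library, which the authors deposited unscaled, and 13.8% of them are not whole. The submitters' processing notes name HISAT2, HTSeq 0.11.2 and GRCh38, without saying what each was used for, and the annotation and the use of strand are not given in the sources used here. IDs that are not Ensembl IDs (380) held 0.0864% to 0.22% of the counts. Symbols were matched by Ensembl ID, with DDX58 found as RIGI, TMEM173 as STING1 and MB21D1 as CGAS, and positions came from GENCODE release 29 on GRCh38. Promoter windows came from RefSeq (GRCh38.p14). Of 33 member windows, 30 had their first transcribed bases in a GENCODE transcript of the same gene.

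Counts were rounded, scaled by TMM (factors 0.771 to 1.11, and 0.771, 0.795 and 1.06 in shRNA3) and filtered (filterByExpr over the 4 groups, at least 10 counts and a total of 15), after which 17532 genes remained. edgeR's quasi-likelihood test (edgeR 4.0.16, limma 3.58.1, R 4.3.3, robust, two-sided) used 1 model of the 4 groups over 12 libraries (8 residual degrees of freedom, common biological coefficient of variation 0.289), with Benjamini-Hochberg adjustment over all tested genes. Standard errors are the log2 fold change over the square root of F. CPM values are TMM-scaled. No 2 libraries agreed within sampling noise (chi-square per gene 3.4 to 215). Intervals for ratios are exact (95%). DESeq2 1.42.0 served as an alternative, beside other filters and size factors, a replicate block, fewer libraries, stricter thresholds and each library left out in turn.

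The members and lists were chosen with earlier results of these data known. By rule, values in each library are printed for the STAT and IRF members, for members called for the mean with all 9 shRNA libraries on 1 side of NC, and for members that differed among the shRNAs. The other 7 members are given by ranges or means. Of the other pathway genes, those called with every shRNA are given. One gene of the pathway lists is not reported here.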

Additional observations from a re-analysis of the deposited data

How the results depend on the processing

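Of the calls that each alternative repeated, those with DESeq2 size factors (median shift of all genes -0.026) and with the DESeq2 Wald test kept all 25, 22, 29 and 27 calls of shRNA1, shRNA2, shRNA3 and the mean. The counts moved as follows. With the NC and compared libraries alone, shRNA1 had 13 members higher, shRNA2 12 higher and 26 lower, and 10 differed among the shRNAs. Of the members with values in each library, this setting gained BST2, EIF2AK2, IFI44, IFITM3 and PARP9 with shRNA1. With shRNA2 it gained DDX60, IFI35, IFI44, IFITM1, IFITM3, IRF7, ISG15, OAS1, OAS3, PARP9 and RSAD2. Each kept its direction (adjusted p from 2.84e-09 to 0.0354). With shRNA3 libraries 1 and 2 left out together, where library 3 is assumed to vary like the other groups, shRNA1 had 13 higher, shRNA2 11 higher and 25 lower and shRNA3 7 higher. An adjusted p under 0.01 left 3 higher with shRNA2 and 6 that differed, and a log2 change of at least 1 left 5 higher for the mean. Leaving out 1 library at a time gave 8 to 13 higher and 14 to 21 lower with shRNA1, 4 to 11 and 14 to 25 with shRNA2, 11 to 14 and 15 to 24 with shRNA3, 6 to 13 and 17 to 21 for the mean, and 9 to 33 that differed. Values near 0 changed sign: OAS3 with shRNA1 (0 with size factors and DESeq2, -0.07 with a mean of at least 50 counts, -0.04 to 0.1 with 1 library left out), IRF7 with shRNA1 (-0.37 to 0.02 with 1 left out), HERC5 with shRNA2 (-0.04 with at least 50 counts, -0.03 to 0.13 with 1 left out) and RSAD2 for the mean (-0.06 with at least 50 counts, 0 with DESeq2, -0.01 to 0.13 with 1 left out). Without shRNA3 libraries 1 and 2, IRF7 became -0.09 with shRNA3, which had been called, and -0.29 for the mean, HERC5 -0.24 and -0.21, RSAD2 -0.31 and -0.26, and IFIT2 0.25 with shRNA3. The cause of these moves was not tested. The minimum of 50 counts tested 36 members of 12917 genes, and no filter tested 33435 genes.

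Replicate numbers are shared across groups. Between libraries of equal number, deviations correlated at -0.0107 on average (18 pairs, from -0.0963 to 0.0968). Over 36 pairs of different numbers the average was 0.00443. Whether libraries of equal number shared a culture or a preparation was not tested. With a replicate block the counts were 9 higher and 16 lower with shRNA1, 7 and 16 with shRNA2, 12 and 17 with shRNA3, 9 and 18 for the mean, and 14 differed. The block gained IFI44 with shRNA1 (adjusted p = 0.05) and OAS1 with shRNA2 (adjusted p = 0.0412), and lost PARP14 with shRNA1 (adjusted p = 0.0572).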
